A study of Argopecten irradians irradians with 6 samples.

Results

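miR-750 and miR-1175 are microRNAs (miRNAs), short RNAs that guide repression of messenger RNAs to which they pair. They were followed in small-RNA libraries from bay scallops, Argopecten irradians irradians, made from the adductor muscle with which the animal shuts its valves. The members were chosen by name: rows of the deposited count table whose name, after the species prefix, is miR-750 or miR-1175 with any arm suffix. The pair was chosen with earlier results of these data known. Within the rule, measured values entered in 1 way, because rows with identical counts in all 6 libraries were merged. This gave 23 of 5446 rows, which merged into 18 distinct count profiles, 9 for each miRNA. The groups were orange adductor muscle of QN Orange scallops (3 libraries) and white adductor muscle of Bohai Red scallops (3 libraries). Per the series description, 9 muscles per strain were taken and each library pooled 3 of them, so SDs here describe differences among pools, and strain and muscle colour cannot be told apart. The age of the animals was not given in the sources used here. The libraries are marked in the table by letters only. Columns lettered B were taken to be Bohai Red after the strain's initial. Columns lettered G were taken to be QN Orange because they were the remaining 3, so every direction given here rests on that reading.

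A miRNA precursor is a hairpin from which 1 or both arms, named 5p and 3p, are cut out as mature RNAs, and usually 1 arm is much more abundant. Both miRNAs are known from protostomes (arthropods, annelids and molluscs) and not from vertebrates, and in several arthropods their genes lie beside each other. Such neighbouring miRNA genes are often transcribed as a single precursor, while the amounts of the mature RNAs also depend on processing and turnover of each hairpin. In mosquitoes miR-1175 is known as an abundant miRNA of the midgut. The position of the genes in the scallop genome was not analysed here.

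The series concerns carotenoid accumulation in orange muscle, and the question here is how the pair behaves in orange compared with white muscle. In these libraries the members of the pair lay on opposite sides: miR-750 was 2.13-fold higher in orange muscle and miR-1175 was 2.27-fold lower, and neither difference passed the threshold of an adjusted p of 0.05 in the fit across all families. The fold of miR-750 rested largely on orange replicate 3, without which it was 1.35. The ratio between them needs no scaling between libraries. It was 4.41-fold higher in orange muscle and did not overlap between the groups. Its exact two-sided permutation p was 0.1, the smallest that 3 against 3 libraries allow. That separation follows from the scaled levels, where miR-750 was higher and miR-1175 lower without overlap. Such levels were found in 29 of 142 families (20.4%) in the higher direction and 21 (14.8%) in the lower. For miR-750 the lowest orange and the highest white library were nearly level, and scaled by library totals its groups overlapped.

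The names behind each miRNA repeated largely the same counts. miR-750 was listed under 11 species names and miR-1175 under 12 names from 9 species prefixes. In all there were 12 prefixes, of which 8 held both miRNAs. All 23 names had at least 1 count. The most abundant name was cte-miR-750 for miR-750 and cte-miR-1175-3p for miR-1175, and each of the 8 other profiles of a miRNA lay at or below this name in all 6 libraries. For miR-750, 6 names, the top name among them, reached at least 90% of the mean count of the top name. In single libraries the others of these held 96.0% to 99.1% of its count. For miR-1175, 3 names, again with the top name, reached that 90%, and the others of them held 92.4% to 96.8% of the top count. The names were therefore not treated as separate measurements, and the top name of each miRNA was used for its level.

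The remaining names held far fewer counts. The name lgi-miR-750 had 76, 44 and 242 counts in orange replicates 1 to 3, against 66, 48 and 49 counts in white replicates 1 to 3. As a percentage of cte-miR-750 this was 12.8% ± 1.75 in orange libraries and 11.0% ± 1.94 in white libraries (SD, n = 3 each), and the groups overlapped. For miR-1175, tcf-miR-1175-3p held 1.79% ± 0.522 of the top name in orange and 1.33% ± 0.152 in white muscle, and the groups overlapped. The profile shared by bmo-miR-1175-3p, dqu-miR-1175-3p and pca-miR-1175-3p held 1.51% ± 0.307 in orange and 1.05% ± 0.185 in white muscle, also overlapping. fhe-miR-750 had 0, 0 and 18 counts in orange and 7, 4 and 6 counts in white replicates 1 to 3. The names tca-miR-750-3p, sme-miR-750-3p, tcf-miR-750, tca-miR-1175-3p and sme-miR-1175-3p had at most 4 counts over all libraries, too few to compare.

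**Figure D1:**
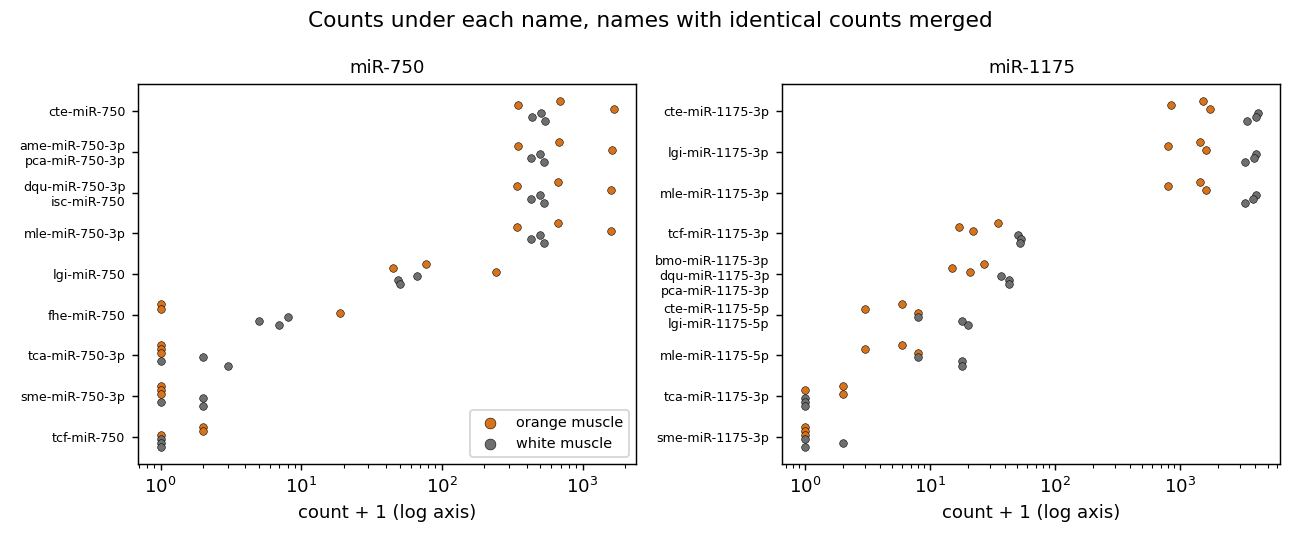
Counts per library (count + 1, log axis) under each name of miR-750 on the left and miR-1175 on the right, with names of identical counts merged on 1 line; each point is a library, orange for orange muscle and grey for white muscle. The top names of each miRNA repeat nearly the same points, orange replicate 3 stands to the right for miR-750, and the orange points lie left of the grey ones for the top names of miR-1175.

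Counts on the 2 arms could be compared for miR-1175 but not for miR-750, for which no name carried a 5p suffix: 6 of its names end in 3p and 5 give no arm. For miR-1175, 9 names were 3p and 3 were 5p, and the 3p arm held nearly all counts. The 5p arm (cte-miR-1175-5p and lgi-miR-1175-5p, with identical counts) had 5, 2 and 7 counts in orange replicates 1 to 3, against 7, 17 and 19 counts in white replicates 1 to 3. Its share of the counts of both arms was 0.328% (exact Clopper-Pearson 95% interval 0.107% to 0.764%) in orange replicate 1, 0.238% (0.0288% to 0.855%) in orange replicate 2 and 0.404% (0.163% to 0.830%) in orange replicate 3. In white replicates 1, 2 and 3 the shares were 0.167% (0.0672% to 0.344%), 0.422% (0.246% to 0.675%) and 0.554% (0.334% to 0.864%). All 3 orange shares lay within the range of the white ones. The group means were 0.323% ± 0.0833 in orange libraries and 0.381% ± 0.197 in white libraries (SD, n = 3 each; exact two-sided permutation p = 0.7, where 0.1 is the smallest p that 3 against 3 libraries allow). The direction of this difference turned without white replicate 3, and a change in arm use was not detectable at this depth. Intervals cover counting error only and take each read as an independent molecule. Reads copied by PCR are not independent, so the intervals may be too narrow, and the same holds where counting error is named below.

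Levels were taken from a table with 1 row per family, whose totals were 2092825 to 4001516 counts per library. They are given in CPM, counts per 1000000 after TMM scaling, a correction for differences in library composition. Of 3 miRNAs taken as markers of the labelled tissue, miR-1 and miR-133 were abundant in all libraries, and the list summed to 293655 to 520769 CPM in orange libraries and 350041 to 509753 CPM in white libraries. The third, miR-206, a muscle miRNA of vertebrates, was nearly absent, at 0.619 to 2.02 CPM in orange libraries and 0.959 to 1.58 CPM in white libraries. Against them the pair was rare. Among the 188 named families, miR-1175 ranked between 25 and 29 by abundance in orange libraries and between 17 and 24 in white libraries. miR-750 ranked between 26 and 35 in orange and between 29 and 40 in white libraries. Levels are per miRNA and not per length, and different miRNAs can be captured with different efficiency, which enters the ratio of the pair within a library.

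miR-1175 had more counts than miR-750 in 5 libraries beyond counting error, and in orange replicate 3 the counts were equal within it. It had 1518, 840 and 1726 counts in orange replicates 1 to 3, or 359, 520 and 497 CPM. In white replicates 1 to 3 it had 4183, 4009 and 3411 counts, or 828, 1282 and 1016 CPM. All orange libraries lay below all white ones, with a gap between 520 and 828 CPM. The means were 459 ± 87.2 CPM in the orange libraries and 1042 ± 228 CPM in the white libraries (SD, n = 3 each).

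The log2 difference of miR-1175 was -1.18 (SE 0.40), and it did not pass the threshold (adjusted p = 0.135 over 142 families, edgeR quasi-likelihood test). In that fit 13 families, or 9.15%, passed, of which 7 (4.93%) were higher and 6 (4.23%) lower in orange muscle. Groups that do not overlap, as for miR-1175, were also found in 21 families (14.8%) in the lower direction. The median family lay at a log2 difference of 0.20, so that relative to it miR-1175 was at -1.38. The call depended on the settings. miR-1175 passed with library totals in place of TMM (-1.37, adjusted p = 0.0289, edgeR), where 14.1% of families passed, without the filter on low counts (-1.39, adjusted p = 0.0181), where 5.91% passed, and by DESeq2 (-1.47, adjusted p = 5.65e-05), where 23.2% passed. It also passed without white replicate 1 (-1.41, adjusted p = 0.0371, edgeR; 13.0% passed) and without both libraries numbered 1 (-1.31, adjusted p = 0.0357; 13.7% passed). Its sign was negative in all 15 other settings, from -2.00 to -1.06.

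miR-750 had 686, 347 and 1660 counts in orange replicates 1 to 3, or 162, 215 and 478 CPM. In white replicates 1 to 3 it had 509, 437 and 539 counts, or 101, 140 and 161 CPM. Orange replicate 3 stood far above the rest, at 2.54 times the mean of the other 2 orange libraries, whereas miR-1175 in the same library was at 1.13 times theirs. The lowest orange library was level with the highest white one, at 162.2 against 160.6 CPM. The means were 285 ± 169 CPM in orange libraries and 134 ± 30.4 CPM in white libraries (SD, n = 3 each).

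The log2 difference of miR-750 was 1.09 (SE 0.57), which is 0.89 above the median family, with an adjusted p of 0.259 (edgeR). It passed in none of the 15 other settings. Without orange replicate 3 it was 0.43 (adjusted p = 0.683, edgeR), and with upper-quartile factors it was 0.26 (adjusted p = 0.929). TMM-scaled groups did not overlap, as for 29 families (20.4%) in the higher direction, but scaled by library totals they did, at 182, 166 and 449 CPM in orange and 127, 128 and 170 CPM in white replicates 1 to 3. The sizes of both differences thus moved with the scaling, which shifts both miRNAs by nearly the same amount.

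**Figure D2:**
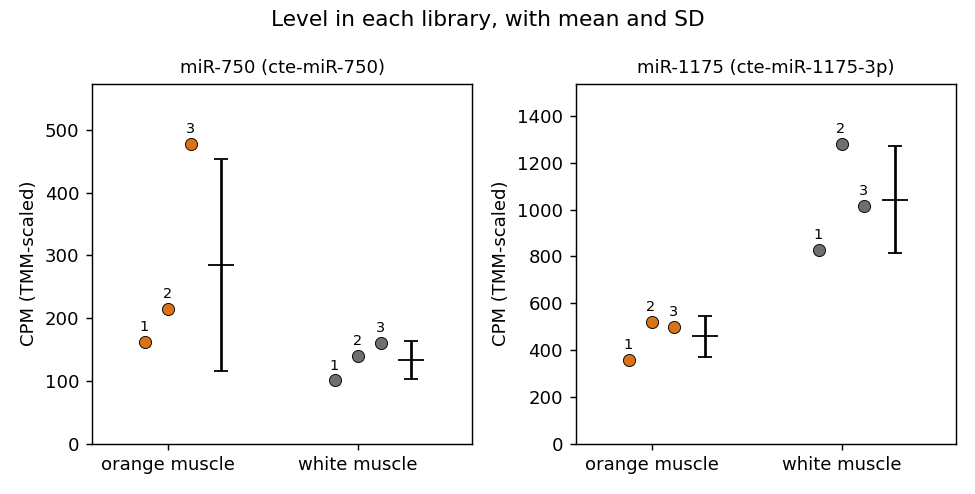
Level of miR-750 (left) and miR-1175 (right) in CPM, TMM-scaled, in each library, numbered by replicate, with the mean and SD of each group beside the points. For miR-750 orange replicate 3 at 478 CPM sets the orange mean apart, whereas for miR-1175 all 3 orange libraries (359 to 520 CPM) lie below all 3 white ones (828 to 1282 CPM).

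When all distinct profiles were fitted as separate features, 10 of the 18 member profiles passed the filter on low counts and 8 did not. None of the 10 passed the threshold in edgeR, 5 of them, all of miR-1175, had an unadjusted p under 0.05, as had 19.4% of all 656 profiles tested. At the adjusted threshold 4 of the 656 passed, or 0.610%. The 3 top profiles of miR-1175 had log2 differences of -1.77 to -1.73 (adjusted p = 0.0713 each, edgeR). The low-count names tcf-miR-1175-3p and bmo-miR-1175-3p had -1.32 (SE 0.45) and -1.21 (SE 0.46). The 5 profiles of miR-750 lay between 0.46 and 0.78, the highest being lgi-miR-750 (SE 0.55, adjusted p = 0.378). The median profile lay at -0.41 in this fit, where the median family lay at 0.20, so the 2 fits differ in their zero and not only in the members. Profiles of 1 miRNA largely repeat the same counts and do not count as repeated tests.

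The ratio combines the opposite differences of the members and is free of the scaling. Its separation of the groups follows from that of their TMM-scaled levels and is not a further result. The log2 ratio of miR-750 to miR-1175 was -1.15, -1.27 and -0.06 in orange replicates 1 to 3, against -3.04, -3.20 and -2.66 in white replicates 1 to 3. In orange replicate 3 the miRNAs were equal within counting error, with miR-1175 at 1.04 times miR-750. In orange replicates 1 and 2 miR-1175 was 2.21 and 2.42 times as abundant, and in white replicates 1 to 3 it was 8.22, 9.17 and 6.33 times as abundant. The mean log2 ratio was -0.83 ± 0.67 in orange libraries and -2.96 ± 0.27 in white libraries (SD, n = 3 each), which differ by 2.14. The exact two-sided permutation p was 0.1, the smallest that 3 against 3 libraries allow, so this test could not pass 0.05.

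Put as a share, miR-750 made up 31.1%, 29.2% and 49.0% of the counts of the pair in orange replicates 1 to 3, against 10.8%, 9.83% and 13.6% in white replicates 1 to 3. Counting error was small beside this gap. The lowest orange share, in replicate 2, had an exact Clopper-Pearson 95% interval of 26.7% to 31.9%, and the highest white share, in replicate 3, had one of 12.6% to 14.8%. On average miR-750 held 36.5% ± 10.9 in orange and 11.4% ± 1.98 in white muscle, and the interval of orange replicate 3, 47.3% to 50.7%, lay above those of the other 2 orange libraries, which reached up to 33.1%. Without orange replicate 3 the difference in the log2 ratio was 1.76, and over the other libraries left out in turn it was up to 2.36. Sums over all names in place of the top names gave 2.15.

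**Figure D3:**
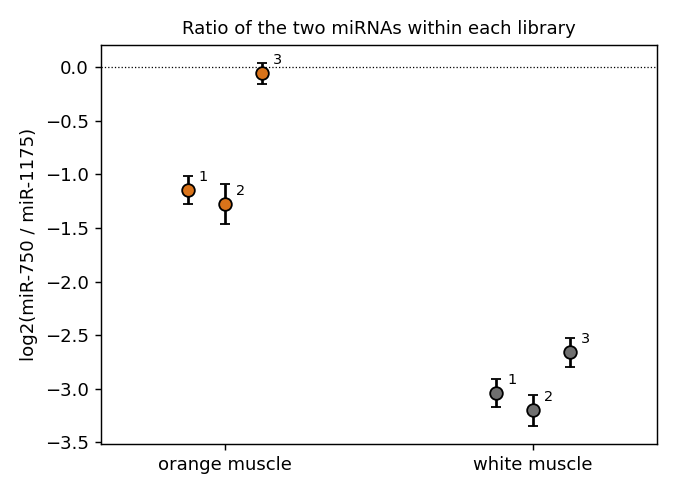
Log2 ratio of miR-750 to miR-1175 counts in each library, numbered by replicate, with exact 95% counting intervals; the dotted line marks equal counts. The white libraries lie between -3.20 and -2.66 and the orange ones between -1.27 and -0.06, with orange replicate 3 at the top.

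**Figure D4:**
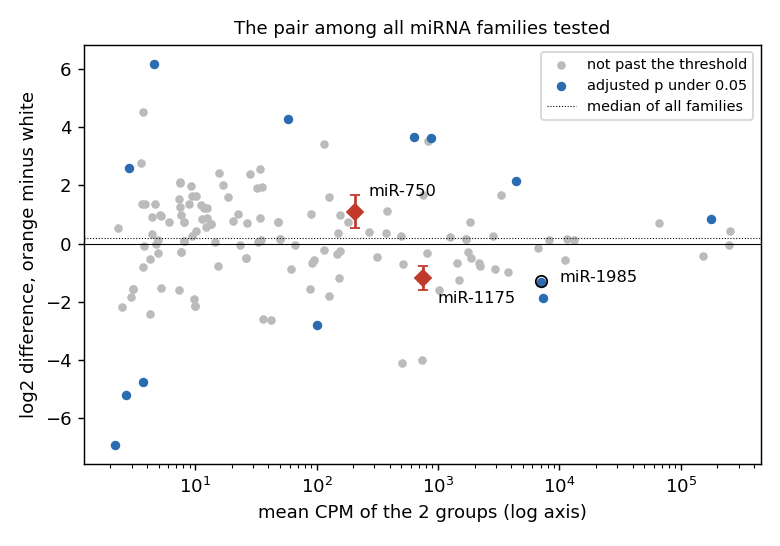
Log2 difference, orange minus white, against mean CPM (log axis) for the 142 families tested; blue points passed an adjusted p of 0.05, red diamonds are miR-750 and miR-1175 with their SE, the ring marks miR-1985 and the dotted line is the median family at 0.20. The members lie on opposite sides of the median, and families of similar abundance with larger differences are seen in both directions.

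Across the 6 libraries the members were not among each other's nearest families. Likeness was measured as the root mean square distance between centred log2(CPM + 1) values, smaller meaning more alike. The distance between the members was 1.15, which placed miR-1175 at rank 82 of 141 families by nearness to miR-750, and miR-750 at rank 78 of 141 by nearness to miR-1175. The values are centred over all 6 libraries, so the opposite group differences of the members enter this distance. It is therefore no result beyond those differences. Such distances also share the scaling factors of the 6 libraries and describe these libraries only. The nearest families below were picked by these distances. Their likeness to the member in group difference, highest library or ratio follows from that choice and is no separate finding.

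The family nearest to miR-1175 was miR-1985, a miRNA known from molluscs, at a distance of 0.12, with the next family at 0.27. miR-1985 had 3312, 4727 and 4248 CPM in orange replicates 1 to 3, against 9214, 11811 and 9424 CPM in white replicates 1 to 3. Its log2 difference was -1.31 (SE 0.26, adjusted p = 0.0186, edgeR), close in size to that of miR-1175. Its call was lost without white replicate 2 (-1.33, adjusted p = 0.0582, edgeR) and without white replicate 3 (-1.30, adjusted p = 0.0690). The log2 ratio of miR-1175 to miR-1985 within a library was -3.16 ± 0.06 in orange libraries and -3.30 ± 0.15 in white libraries (SD, n = 3 each), and the groups overlapped. The log2 ratio of miR-750 to miR-1985 differed as that to miR-1175 did, with no overlap and a gap of 2.28. It was -3.99 ± 0.73 in orange libraries and -6.26 ± 0.34 in white libraries. A ratio that separates the groups is thus not particular to the pair. As miR-1985 was picked for its nearness to miR-1175, this follows from that choice. The next families were the predicted miRNAs Contig219_8299 (0.27), at 0.473 to 6.39 CPM, and Contig410_14939 (0.29), at 275 to 773 CPM.

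No family stood as near to miR-750. The closest were the predicted miRNA Contig1208_30870 at a distance of 0.33, let-7, which controls developmental timing, at 0.38, and miR-34, a miRNA of ciliated cells in vertebrates, at 0.38. All 3 were highest in orange replicate 3, as miR-750 was. Contig1208_30870 reached 11.8 CPM there, let-7 94527 CPM and miR-34 274 CPM. The log2 ratio of miR-750 to let-7 was -8.31 ± 0.62 in orange libraries and -8.55 ± 0.08 in white libraries, with overlapping groups, and the ratio of miR-750 to miR-34 was 0.20 ± 0.52 in orange libraries and -0.04 ± 0.34 in white libraries, also overlapping.

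**Figure D5:**
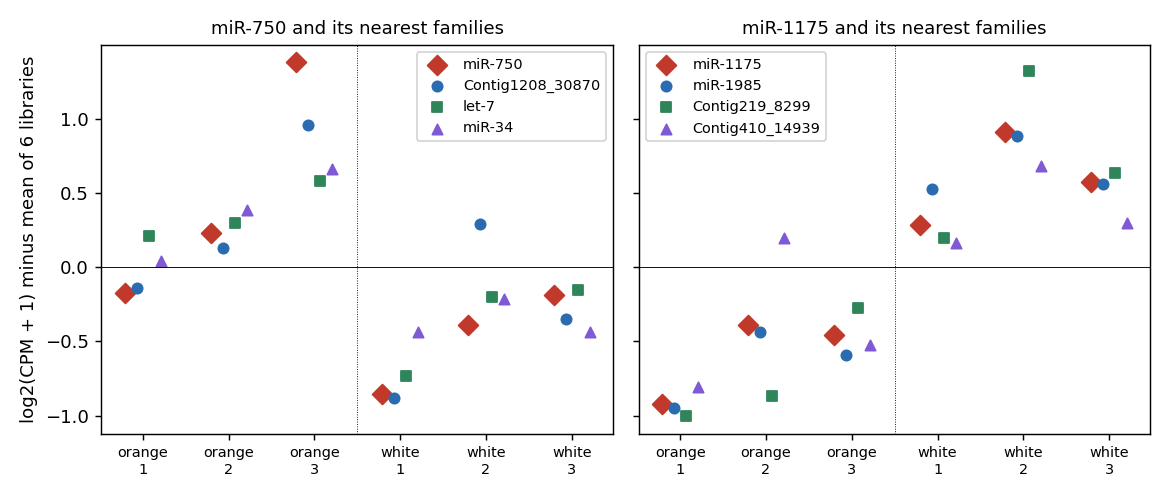
Log2(CPM + 1) minus the mean of the 6 libraries, for miR-750 and its 3 nearest families (left) and for miR-1175 and its 3 nearest families (right), by library, with orange libraries left of the dotted line. miR-1175 and miR-1985 lie close together in each library and farthest apart in white replicate 1, and miR-750 and its neighbours are highest in orange replicate 3.

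Some libraries also differed in miRNAs of other tissues. In the gut list, miR-375 and miR-194, both members were highest in orange replicate 3, as miR-750 was. Their sum was 25.8, 41.5 and 141 CPM in orange replicates 1 to 3, against 9.11, 14.4 and 17.6 CPM in white replicates 1 to 3. Neither was at 0 in any library, and miR-375 in orange replicate 3 was at 5.08 times the mean of the other 2 orange libraries. For miR-194, which had 9 to 52 counts per library, this was 1.71 times, so the rise of the sum was mostly that of miR-375. The epithelial and sensory list of 4 (miR-8, miR-183, miR-263 and miR-96) was highest in the libraries numbered 1, at 2533 to 4809 CPM in orange libraries and 1457 to 7513 CPM in white libraries, with none at 0. The neural list of 3 (miR-124, miR-9 and miR-219) was highest in orange replicate 1, at 19.8 to 666 CPM in orange libraries and 26.2 to 55.0 CPM in white libraries. In orange replicate 1 miR-124 was at 604 CPM and miR-9 at 61.7 CPM, so the height of the sum was mostly that of miR-124. miR-219 was at 0 in 3 libraries, among them orange replicate 1, and was highest in white replicate 1 at 3.76 CPM. The part of such tissue in the levels of miR-750 and miR-1175 was not tested, and in whole muscle more cells of a type and more miRNA per cell cannot be told apart. Without both libraries numbered 1 the differences were 1.06 for miR-750 and -1.31 for miR-1175, and the difference in their log2 ratio was 2.26.

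Other miRNAs of protostome animals were compared from a list of 14 families, which includes the pair and was chosen with earlier results of these data known. Of these, 11 were in the table and 10 were tested, and 0 were higher and 0 lower at the threshold by edgeR, against 9.15% of all families. At an unadjusted p under 0.05 there were 2 of the 10 (miR-1175 and bantam), where 26.8% of all families were, and by DESeq2 6 of the 10 passed, where 23.2% of all families did. Their log2 differences ranged from -1.91 to 1.09, with a median of -0.53 against 0.20 for all families tested. Below 0 lay 8 of the 10, where 84 of all 142 families tested lay above 0. miR-750 was the highest of the 10, and the other family above 0 was miR-2 at 0.13 (SE 0.27). miR-12 was the lowest at -1.91 (SE 0.99) and miR-1175 followed. miR-12, and miR-279 at -0.66 (SE 0.94), rested on white replicate 1. miR-12 had 1.89, 8.67 and 2.30 CPM in orange replicates 1 to 3, against 33.7, 6.71 and 5.66 CPM in white replicates 1 to 3, and miR-279 had 1203, 1063 and 1077 CPM in orange, against 4484, 387 and 401 CPM in white replicates 1 to 3. Without white replicate 1 miR-12 was at -0.73 and miR-279 turned to 1.44 (adjusted p = 0.0371, edgeR), while miR-2 turned to -0.14. In that fit 8 of the 10 lay below 0, not all the same ones, with a median of -0.69 against 0.48 for all families, and miR-1175 was the lowest at -1.41. bantam, which promotes growth in Drosophila, had -0.99 (SE 0.40, adjusted p = 0.160, edgeR). Its groups did not overlap, but the gap was narrow, at 4007 CPM in orange replicate 2 against 4082 CPM in white replicate 3. Such groups in the lower direction were also found for miR-1175 and for miR-87 (-0.49, SE 0.31, adjusted p = 0.332, edgeR). Over all families tested they were found in 21 of 142 (14.8%).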

How the data were processed

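Whole-number counts per miRNA name in 6 libraries were used as deposited by the authors, with no normalization, per the file headers. The trimming, aligner and miRNA reference are not stated in the labels or file headers. The deposited TPM table was not used; its 6 matching columns equalled count per column total times 1000000 within 5.00e-05. It has 9 more per-sample columns, not used, whose names match no sample here. Many names hold identical or nearly equal counts, so the same reads were probably counted under several names, which could not be checked without sequences. Each family was represented by its most abundant row (716 families), and adjusted p-values lack their full nominal meaning where families share reads. Each predicted miRNA counted as its own family, also where 2 had identical counts. Of the 142 families tested 62 were named, and the shares of all families include the predicted ones.

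The test of differences was that of edgeR 4.0.16 under R 4.3.3 (TMM, filterByExpr, robust glmQLFit, glmQLFTest, Benjamini-Hochberg over all families tested, threshold 0.05), with SE as the log2 difference over the square root of F. The fit was also run on simulated counts with independent families and the same relative spread for every family. These settings are simpler than the data, so that run does not bear on the calls here. DESeq2 1.42.0 was an alternative. Ratios used a pseudocount of 0.5 counts, and single values were compared by exact permutation (scipy 1.17.1).

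Named miRNAs were all member profiles, the 3 nearest families of each, and any passing family of the protostome list. After their values were seen, miR-2, miR-12, miR-87, miR-279 and bantam were also named. The members and lists were chosen with earlier results of these data known. The labels do not say that replicate numbers are shared between strains.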

Additional observations from a re-analysis of the deposited data

How the results depend on the processing

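miR-750 kept a positive log2 difference (0.26 to 1.35) without passing, and miR-1175 a negative one, in all 15 other settings. miR-1175 passed with library totals (-1.37), no filter (-1.39), the DESeq2 test (-1.47), without white replicate 1 (-1.41) and without both libraries numbered 1 (-1.31). Leaving out each library in turn gave -1.41 to -1.06 for miR-1175, 0.43 to 1.35 for miR-750, 1.76 to 2.36 for their log2 ratio, and -0.165 to 0.0286 percentage points for the 5p share of miR-1175, which turned positive without white replicate 3. The count of passing families was 13, with 4 among distinct profiles, 20 with library totals, 29 without a filter, 33 by the DESeq2 test, 0 without white replicate 2 (29 at an unadjusted p under 0.05, edgeR), 0 without white replicate 3 (34) and up to 20 without another library; the causes were not tested. The split of higher to lower calls was 7 to 6, but 3 to 6 with DESeq2 size factors, 2 to 9 with upper-quartile factors and 8 to 12 with library totals, where the median family lay at -0.07, -0.39 and -0.01.

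Without white replicate 1, chosen for the protostome list after seeing the data, miR-279 turned from negative to 1.44.

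Deviations from the group means correlated at 0.19, 0.00033 and 0.16 for numbers 1, 2 and 3. Between libraries of different numbers they correlated at -0.27 to 0.18. These few values cannot show whether replicate numbers pair the libraries. With the replicate block, 12 families passed, miR-750 was at 0.96, miR-1175 at -1.18 and the log2 ratio at 2.14. The 5p share of miR-750 could not be computed, since no name is 5p. Depth limits the 5p arm of miR-1175, at 2 to 19 counts per library.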
